A study of Mus musculus with 6 samples.

Results

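The genes that make microRNAs and carry out silencing were examined in retinal RNA from mice at postnatal day 4 (P4), the age of the mouse retina in which photoreceptors are still being generated. The set held 10 genes chosen by name, Drosha, Dgcr8, Xpo5, Dicer1, Tarbp2, Ago1, Ago2, Tnrc6a, Tnrc6b and Lin28a. Their members were all probe sets of the arrays whose only gene symbol is one of these names. There were 18 such probe sets of 22626 that are not controls, and they covered 8 of the 10 genes. No probe set was paired with Drosha or Ago1, which were therefore not analysed here. The retinas came from 3 Nhlh2 knockout mice and 3 wildtype mice, all at P4 and all on a mixed C57/129 background, with no treatment. How the Nhlh2 allele was made was not given in the sources used here. Each knockout mouse had 1 wildtype littermate, so that the mice form 3 littermate pairs, and each retinal RNA was hybridised to 1 Affymetrix GeneChip mouse array. The value of a probe set is its MAS 5.0 signal, a fluorescence intensity on a linear scale. Nhlh2, a transcription factor of the basic helix-loop-helix class, had 0 probe sets paired with its symbol, so the genotype of the arrays could not be checked from the targeted gene.

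A microRNA is cut out of a long transcript in steps. In the nucleus the enzyme Drosha and its RNA-binding partner Dgcr8 release a hairpin, which Xpo5 (exportin 5) carries to the cytoplasm. Dicer1, with its partner Tarbp2, removes the loop, and a strand of the resulting duplex is loaded into an Argonaute protein such as Ago1 or Ago2. The Argonaute then finds messenger RNAs through the seed of the microRNA, and the GW182 proteins Tnrc6a and Tnrc6b connect it to the enzymes that shorten the poly(A) tail and remove the cap. Lin28a acts in the other direction on a single family, since it binds the let-7 hairpin and keeps Dicer1 from completing it. In the mouse retina, loss of Dicer1 is known to disturb development and to lead to degeneration.

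The sequences below show what this machinery handles, and were taken from RefSeq (GRCm38.p6). The let-7g hairpin is shown because it is the kind of substrate that Lin28a binds, and it lies at chr9:106178840-106178927 on the plus strand. Its capitals mark GGAG, the motif that Lin28 proteins recognise, which lies between the arms.
let-7g hairpin: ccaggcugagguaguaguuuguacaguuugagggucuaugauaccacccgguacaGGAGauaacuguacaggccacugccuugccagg
The letters GGAG, read on the transcribed strand only, were present between the arms in 9 of 11 let-7 hairpins and in 53 of 645 (8.22%) of all hairpins whose arms could both be placed. The study measured miR-125 and miR-9 in the retina, among others such as miR-124, which is not printed here, with let-7d as a positive control. Mature products are given for let-7, miR-125 and miR-9. Their capitals mark the seed, bases 2 to 8, which an Argonaute presents to its targets.
let-7a-5p: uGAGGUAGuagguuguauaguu
let-7d-5p: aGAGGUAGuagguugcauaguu
let-7g-5p: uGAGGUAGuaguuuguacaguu
miR-125a-5p: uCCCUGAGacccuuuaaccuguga
miR-125b-5p: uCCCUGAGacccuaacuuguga
miR-9-5p: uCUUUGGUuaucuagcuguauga
The 8 let-7 sequences in the table, from let-7a to let-7i, shared the seed GAGGUAG, and the pair of miR-125 sequences shared CCCUGAG. These arrays measured messenger RNAs and not the microRNAs themselves.

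The knockout 2 array stood apart from the other 5. Its median signal was 9.0, while the other arrays had medians from 51.3 to 95.5. Ratios between the 3′ and 5′ control probe sets were 274 for Actb and 15.6 for Gapdh on this array, and 1.38 to 1.56 and 0.698 to 0.838 on the others. Rank correlations of signals over all non-control probe sets were 0.642 to 0.669 between this array and the others, and 0.947 to 0.975 among those. The part of this array in each result was measured by leaving it out. All 6 photoreceptor markers examined, such as Crx and Nrl, and all 5 measured progenitor markers, such as Pax6 and Sox2, lay above the array median in knockout 1, knockout 3 and the 3 wildtype arrays. The lens genes Cryaa, Cryba1, Cryba2 and Crybb1 were high in wildtype 1 alone. The 7 measured lens markers summed to 5605 there against 39.0 to 80.4 in the other 5 arrays, and Cryaa had 2567 against 1.2 to 3.9. Of the remaining lens markers, Mip and Gja3 lay below the median of wildtype 1, at 37.1 and 32.7. Bfsp1 was not raised there, at 4.6 against 1.0 to 15.2 in the other arrays. Of 5 measured pigment epithelium markers 4 lay above the median in knockout 1, knockout 3 and all wildtype arrays, while Rpe65 had 1.2 to 5.8 in knockout arrays and 13.3 to 31.6 in wildtype arrays. Of 5 measured blood and vessel markers 1 lay above it in those arrays, the vessel gene Kdr, with 876.3 and 517.3 in knockout 1 and 3 and 508.0 to 965.3 in wildtype arrays. In whole retinas, fewer cells of a type and less RNA per cell cannot be told apart.

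The first question was which parts of the machinery gave signal in the P4 wildtype retina. A gene counted as above the median when its brightest probe set exceeded the array median in all 3 wildtype arrays. That was so for 4 of the 8 measured genes, Dicer1, Ago2, Tnrc6a and Tnrc6b. Xpo5 passed the median in 2 wildtype arrays, Dgcr8 in 1, Tarbp2 in 1 and Lin28a in 0. By probe set the count was 11 of 18, and it was 45.5% of all probe sets on the array. Probe sets differ in how well they bind, so these ranks place each signal on its array and do not order the genes by transcript amount.

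**Figure D1:**
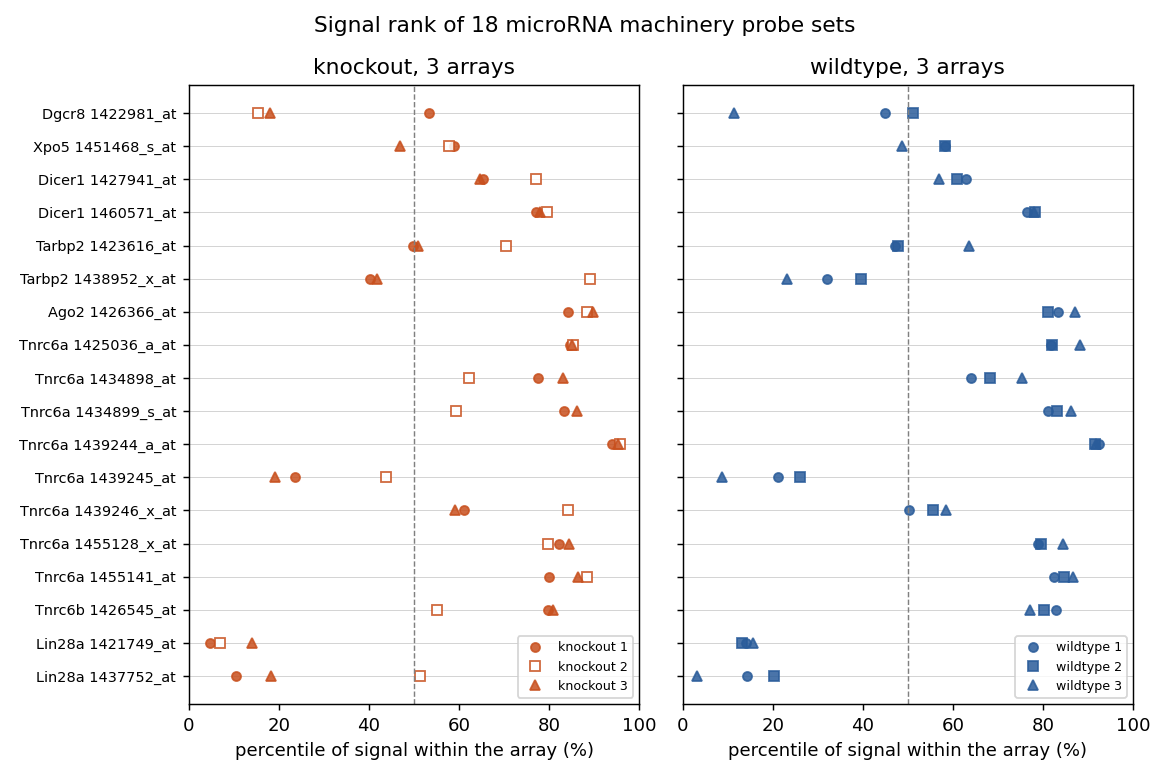
Percentile of the signal of each of the 18 member probe sets among the 22626 non-control probe sets of its array, in knockout arrays (left) and wildtype arrays (right), with 1 point per array, an open symbol for knockout 2 and the array median as a dashed line. Dicer1 1460571_at, Ago2 and most Tnrc6a probe sets lay right of the median in every array, while both Lin28a probe sets lay at or below percentile 20.2 in all wildtype arrays.

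Nuclear processing was represented by Dgcr8 alone, through a single probe set (1422981_at). Its signals were 82.3, 1.1 and 6.5 in knockout 1, 2 and 3, against 57.1, 102.0 and 2.8 in wildtype 1, 2 and 3. It was thus near the array median in knockout 1, wildtype 1 and wildtype 2 and low in the other 3 arrays, so that both genotypes held high and low values and overlapped. On ranks, knockout arrays were at percentiles 53.3, 15.3 and 18.04, and wildtype arrays at 45.0, 51.2 and 11.4. Its SD over the 3 wildtype arrays, 2.06 on the normalized log2 scale, was the largest of the 18 probe sets.

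Xpo5, the export receptor for the hairpins, was read by 1 probe set (1451468_s_at) whose suffix marks probes that can match more than 1 transcript. It gave 108.1, 11.6 and 42.8 in knockout arrays and 118.1, 146.9 and 52.9 in wildtype arrays. Knockout 3 and wildtype 3, the third littermate pair, were at percentiles 46.9 and 48.7, while the 4 other arrays lay between 57.7 and 58.9.

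Dicer1, the enzyme that cuts the hairpin into the duplex, had a steady value. Its brighter probe set (1460571_at) gave 269.5, 28.9 and 232.3 in knockout arrays and 291.3, 385.1 and 249.2 in wildtype arrays. The raw values of knockout 2 were low as on that whole array, and in rank the 6 arrays covered only percentiles 76.5 to 79.6. The wildtype SD of this probe set, 0.07 log2 units, was the smallest of the 18. A second Dicer1 probe set (1427941_at) gave 151.1, 24.7 and 114.6 in knockout arrays and 150.2, 167.5 and 84.2 in wildtype arrays. All 3 knockout arrays exceeded all 3 wildtype arrays in the rank of this second probe set, with percentiles of 64.6 to 76.9 against 56.9 to 63.0, whereas the brighter probe set overlapped between genotypes. Such a separation in rank, knockout 2 included, was seen at 4 of the 18 member probe sets and at 7.81% of all probe sets. The other 3 were Tarbp2 1438952_x_at and Tnrc6a 1439244_a_at and 1439246_x_at.

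Tarbp2, which holds the RNA for Dicer1, gave 67.2, 18.3 and 54.2 in knockout arrays and 64.9, 85.1 and 118.3 in wildtype arrays at its probe set 1423616_at. The second one (1438952_x_at), with a suffix for probes that may cross-hybridise, gave 37.7, 61.5 and 31.6 in knockout arrays and 25.5, 51.5 and 10.5 in wildtype arrays. On knockout 2 that probe set had a rank of 89.0, far above the 23.3 to 41.9 of the other 5 arrays.

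Ago2, the Argonaute able to cleave its target, had 408.5, 58.7 and 526.6 in knockout arrays and 425.4, 451.2 and 452.5 in wildtype arrays (1426366_at). It lay well above the median of every array, at percentiles 84.1 to 89.7 in knockout arrays and 81.0 to 87.1 in wildtype arrays, and the genotypes overlapped.

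Tnrc6a, a GW182 protein that joins Argonaute to the deadenylases, was read by 8 probe sets. The brightest (1439244_a_at) gave 960.7, 187.0 and 1074.5 in knockout arrays and 909.5, 991.2 and 704.9 in wildtype arrays. Relative to the rest of each array, all 3 knockout arrays were above all 3 wildtype arrays, at percentiles 93.8 to 95.6 against 91.4 to 92.5. The dimmest (1439245_at) gave 13.2, 7.1 and 7.2 in knockout arrays and 12.8, 22.0 and 1.9 in wildtype arrays, and stayed below the median in all 6. In the wildtype retina 7 of the 8 were above the median in every array.

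**Figure D2:**
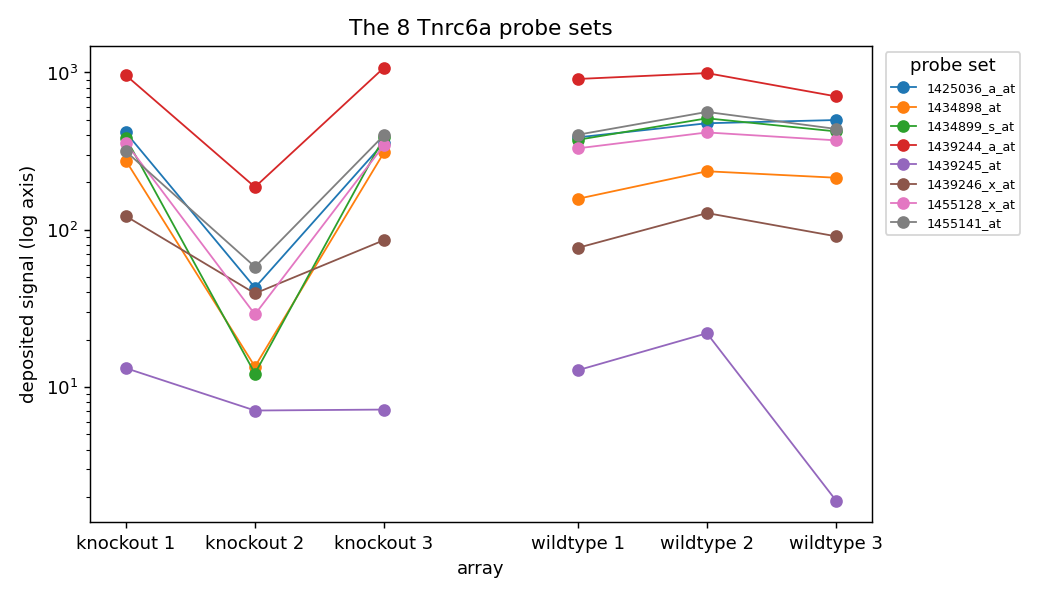
Deposited signal, on a log axis, of the 8 Tnrc6a probe sets in the 3 knockout arrays (left) and the 3 wildtype arrays (right). Each colour is 1 probe set and the lines only trace it between arrays, which have no order. All 8 were lower at knockout 2 than at knockout 1, as was the median of that array, and 1439245_at stayed at 22.0 or less in all 6 arrays.

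Tnrc6b, the related GW182 protein, gave 312.0, 10.7 and 269.1 in knockout arrays and 412.9, 429.3 and 234.2 in wildtype arrays (1426545_at). It lay at percentiles 77.0 to 82.8 in all arrays but knockout 2, where it was at 55.2.

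Lin28a was near the bottom of the arrays. One probe set (1421749_at) gave 1.4, 0.6 and 3.9 in knockout arrays and 5.7, 6.4 and 4.9 in wildtype arrays. The other (1437752_at) gave 3.1, 9.4 and 6.7 in knockout arrays and 6.1, 14.1 and 0.8 in wildtype arrays. In the wildtype retina their percentiles were 3.26 to 20.2. The highest Lin28a rank was 51.3, for 1437752_at on knockout 2, from a signal of 9.4 on an array whose median was 9.0. Detection calls were not used here, so these low signals are given as values and not as absence of the transcript.

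The second question was whether the loss of Nhlh2 went with a change in the machinery. No member passed the test between genotypes. In limma fitted to all probe sets and 6 arrays after quantile normalization, 0 of 18 member probe sets had an adjusted p under 0.05, and over all probe sets the share was 0%. Members' adjusted p ran from 0.807 to 0.973. At an unadjusted p under 0.05 there were 0 of 18 members, against 347 of all probe sets (1.53%). The median log2 difference, knockout minus wildtype, was 0.19 over the members and 0.03 over all probe sets, with 13 members above 0 and 5 below. Of these 18 probe sets 8 read Tnrc6a, so that gene weighs most in the median and the counts. The share of all probe sets above 0 was not counted. With 3 mice per genotype and the knockout 2 array among them, the intervals were wide, so these values do not show that the genotypes were alike. Without wildtype 1, the array in which some lens genes were high, 0 members were called as well, and their median difference was 0.078.

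Gene by gene, the log2 differences of the brightest probe sets were as follows, with the standard error from limma. Dgcr8 had -0.54 ± 1.29 and Xpo5 -0.05 ± 0.45. Dicer1 had 0.05 ± 0.28 and Tarbp2 0.29 ± 0.58. Their second probe sets had larger values, 0.60 ± 0.39 for Dicer1 1427941_at and 2.04 ± 1.06 for Tarbp2 1438952_x_at. For the silencing proteins, Ago2 had 0.39 ± 0.32, Tnrc6a 0.59 ± 0.26 and Tnrc6b -0.57 ± 0.53. Lin28a had 1.34 ± 1.11 at 1437752_at and -0.74 ± 0.56 at 1421749_at, opposite in sign for probe sets of a single gene at these low signals.

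Without the knockout 2 array several estimates moved closer to 0. Dicer1 then had a log2 difference of 0.00 with a 95% interval of -0.39 to 0.39, and Tnrc6b had 0.01 with an interval of -0.44 to 0.47. Ago2 had 0.33 (-0.26 to 0.93), Tarbp2 -0.18 (-1.19 to 0.83) and Xpo5 -0.18 (-1.10 to 0.75). The second probe sets had 0.34 (-0.21 to 0.89) for Dicer1 1427941_at and 0.81 (-0.43 to 2.06) for Tarbp2 1438952_x_at. For Dgcr8 the interval, -3.09 to 3.31 around 0.11, stayed too wide to bound a change. The members with an unadjusted p under 0.05 were 2 of 18, against 2.36% of all probe sets, and both read Tnrc6a. They were 1439244_a_at, with a log2 difference of 0.48 ± 0.16, and 1434898_at, with 0.83 ± 0.28. Neither passed after adjustment over all probe sets (limma adjusted p = 1.0 for every member).

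The signals of 1434898_at were 275.4, 13.5 and 311.0 in knockout arrays and 157.4, 235.6 and 214.3 in wildtype arrays, and knockout 1 and 3 lay above all wildtype arrays. The 6 other Tnrc6a probe sets had log2 differences of -0.12 to 0.45 without knockout 2, each with an interval that included 0. Knockout 1 and 3 did not overlap the 3 wildtype arrays in normalized signal at 5 of the 18 member probe sets, and at 14.7% of all probe sets. These 5 were Dicer1 1427941_at, Tarbp2 1438952_x_at, and 1434898_at, 1439244_a_at and 1439246_x_at of Tnrc6a.

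Within littermate pairs, the median difference over the 18 members was 0.19 in pair 1, 0.37 in pair 2 and 0.17 in pair 3, while over all probe sets it was 0.01, 0.18 and 0.00. Dicer1 1460571_at had 0.04, 0.11 and 0.00 in pairs 1, 2 and 3. A higher value in the knockout mouse in 3 of 3 pairs was seen at 6 of the 18 member probe sets and at 13.5% of all probe sets, with pair 2 among the pairs. They included Ago2, by 0.09, 0.76 and 0.33, and Tnrc6a 1439244_a_at, by 0.24, 0.82 and 0.71. Tnrc6a 1439246_x_at was among them too, by 0.78, 2.09 and 0.04, as was the dim 1439245_at, by 0.23, 1.47 and 1.39. The remaining Tnrc6a probe sets were not. Values below 0 among those included -1.73 in pair 2 for 1434899_s_at and -0.36 in pair 3 for 1425036_a_at. For 1455141_at they were -0.21 and -0.03 in pairs 1 and 3. Dgcr8 had 0.63, -3.20 and 0.93, so its sign in pair 2 was opposite to the others, and Tnrc6b had -0.26, -1.75 and 0.29. Pair 2, which holds knockout 2, had the widest range over the members, -3.20 to 3.85, against -1.20 to 0.94 in pair 1 and -0.89 to 1.96 in pair 3.

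**Figure D3:**
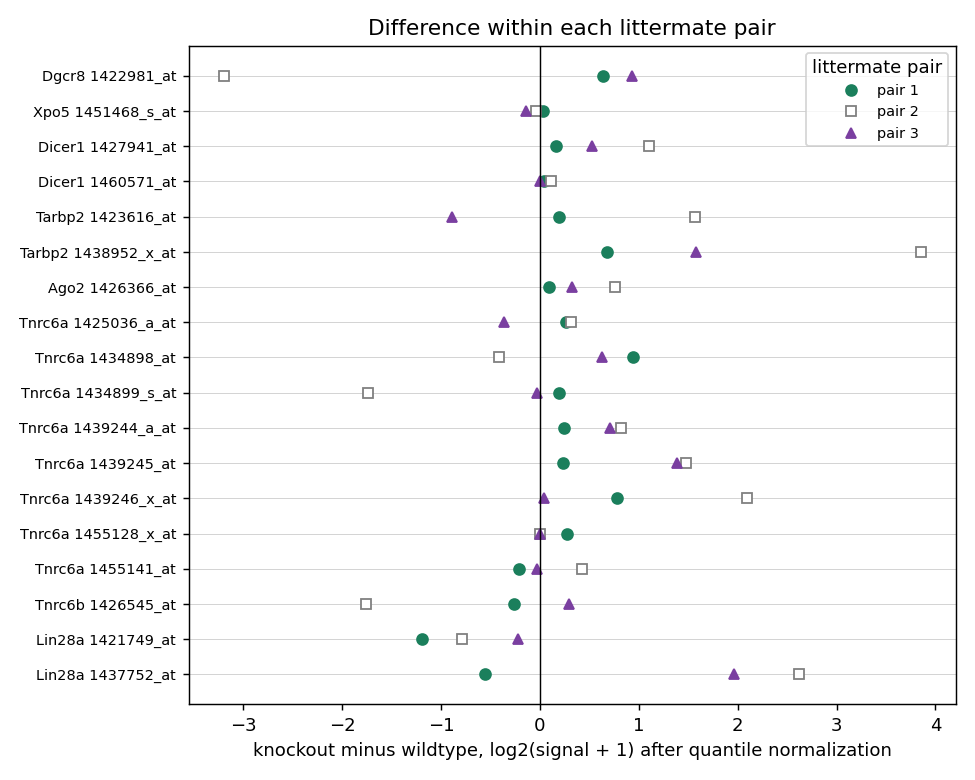
Knockout minus wildtype difference in normalized log2 signal within each littermate pair, for each of the 18 member probe sets, with open squares for pair 2, which holds the knockout 2 array. Dicer1 1460571_at lay within 0.11 of 0 in all pairs, and Dgcr8 and Tarbp2 1438952_x_at had their most extreme values, -3.20 and 3.85, in pair 2.

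Other genes of the pathway, listed by role, were read the same way through their brightest probe sets. Of 45 genes in 4 lists 32 were measured, and 0 rose and 0 fell in the knockout after adjustment, with and without knockout 2. At an unadjusted p under 0.05 limma gave 0 of them with all arrays and 1 without knockout 2. The shares of all probe sets were 1.53% and 2.36%. The 1 gene was Ddx6 of the deadenylation and decapping list (1434697_at). It had -0.47 (95% interval -0.89 to -0.05) without knockout 2 and -0.05 with all arrays. Its other probe sets had -0.16 and -0.21 without knockout 2, with intervals that included 0. Of 7 measured nuclear cofactors, which assist or edit the early transcripts, the median log2 difference was 0.01, and -0.21 without knockout 2. The ends of this list were the hairpin-binding protein Hnrnpa1 at 0.23 and the RNA editing enzyme Adar at -1.54, which became -0.21 and -0.45 without knockout 2. Adar had 66.5, 0.6 and 13.6 in knockout arrays and 66.2, 88.3 and 22.5 in wildtype arrays. The 8 measured partners of Argonaute had a median of -0.10, from -0.52 for the nuclease Snd1 to 1.25 for the helicase Mov10. Without knockout 2 the median was -0.04, Snd1 had -0.09 and Mov10 0.55. Mov10 gave 22.6, 13.2 and 22.1 in knockout arrays and 25.2, 17.5 and 14.2 in wildtype arrays.

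The deadenylation and decapping list, on which GW182 proteins act, had 14 measured genes with a median of -0.16. Its ends were the deadenylase subunit Cnot6l at -1.31 and the decapping scaffold Edc4 at 0.85. Without knockout 2 these became 0.02 and 0.17 and the median -0.04, and 13 of these 14 genes were above the median in all wildtype arrays. Of 7 genes around let-7, 3 were measured, with a median of 0.31. The uridylyltransferase Tut7, which tails the hairpin held by Lin28a, had 0.16, and the let-7 target Igf2bp1 had 0.66. Without knockout 2 they had 0.07 and 0.21, and the median was 0.08. Tut7 was well above the array median, at 414.3, 51.8 and 353.2 in knockout arrays and 442.6, 512.0 and 375.6 in wildtype arrays.

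A further comparison was added after the values had been seen, because Dgcr8 and Xpo5 were low in both mice of the third pair. Knockout 3 and wildtype 3 were set against knockout 1 and wildtype 1 in limma with genotype as a covariate, over the 4 arrays of litters 3 and 1. Since these genes prompted it, their values are given as a description with no test. Dgcr8 had 6.5 in knockout 3 and 2.8 in wildtype 3, against 82.3 in knockout 1 and 57.1 in wildtype 1. The log2 difference was -3.32 with a constant of 1 added to the signals and -1.83 with a constant of 16, so its size rests on how such low signals are treated. In litter 2, which was not in this fit, Dgcr8 was low in knockout 2, at 1.1, and high in wildtype 2, at 102.0. Xpo5 had 42.8 in knockout 3 and 52.9 in wildtype 3, against 108.1 in knockout 1 and 118.1 in wildtype 1, a log2 difference of -0.85.

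Over all probe sets 6.84% were called between these litters. The only 1 of the 18 members called was Dgcr8, which had prompted the comparison, so its call is not a test. Of the members that did not prompt the comparison, Ago2 had a log2 difference of 0.51 ± 0.15, litter 3 minus litter 1 (limma adjusted p = 0.071). Tnrc6a 1434898_at had 0.63 ± 0.18 (limma adjusted p = 0.061) and 1455141_at had 0.52 ± 0.15 (limma adjusted p = 0.071). These 3 were called with centring at the 75th percentile, where 9.02% of all probe sets were, and not with the other settings tried. Dicer1 had 0.10 ± 0.17 and Tnrc6b -0.20 ± 0.18.

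Both litter 3 arrays lay outside the range of knockout 1, wildtype 1 and wildtype 2 at 10 of the 18 member probe sets, against 42.3% of all probe sets. Among probe sets above the median in all 3 wildtype arrays 11.9% were called in the litter comparison, and 0 of the 11 members with that property. Deposited signals of some markers of other cells also differed between the litters, as did the array medians. These medians were 51.3 and 56.9 in knockout 3 and wildtype 3, against 68.4 and 76.1 in knockout 1 and wildtype 1. Summed blood and vessel markers were 569.6 in knockout 3 and 587.9 in wildtype 3, against 933.2 in knockout 1 and 1010.3 in wildtype 1. Most of that sum was Kdr, with 517.3 and 508.0 against 876.3 and 965.3. Pecam1 was lower in knockout 3, at 2.5 against 32.9 in knockout 1. In wildtype mice it had 8.3 against 9.1, with a higher rank in litter 3, at percentile 20.5 against 17.5. Cdh5 and Hba-a1 were higher, and Tie1 differed in direction between genotypes. Summed microglia markers were 401.7 and 337.0 against 566.5 and 690.2. In rank C1qa was higher in litter 3, at percentiles 52.9 and 57.1 against 48.2 and 55.1. Csf1r was lower, at 71.4 and 66.0 against 75.7 and 79.6. The progenitor gene Lhx2 had 668.1 in knockout 3 and 447.4 in wildtype 3, against 984.0 in knockout 1 and 1284.5 in wildtype 1. Of the other progenitor markers, Six3 was higher in litter 3, at 736.7 and 795.8 against 598.4 and 735.8. Pax6, Sox2 and Rax had lower signals but kept nearly the same rank, such as Rax at percentiles 88.6 and 87.0 against 88.9 and 88.4. Summed lens markers were 65.1 and 80.4 in litter 3, against 57.8 in knockout 1 and 5605 in wildtype 1. The part of these cells in the litter values was not tested. Litter and any handling that a pair of littermates shared cannot be told apart, and p-values here rest on 1 mouse per genotype and litter.

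**Figure D4:**
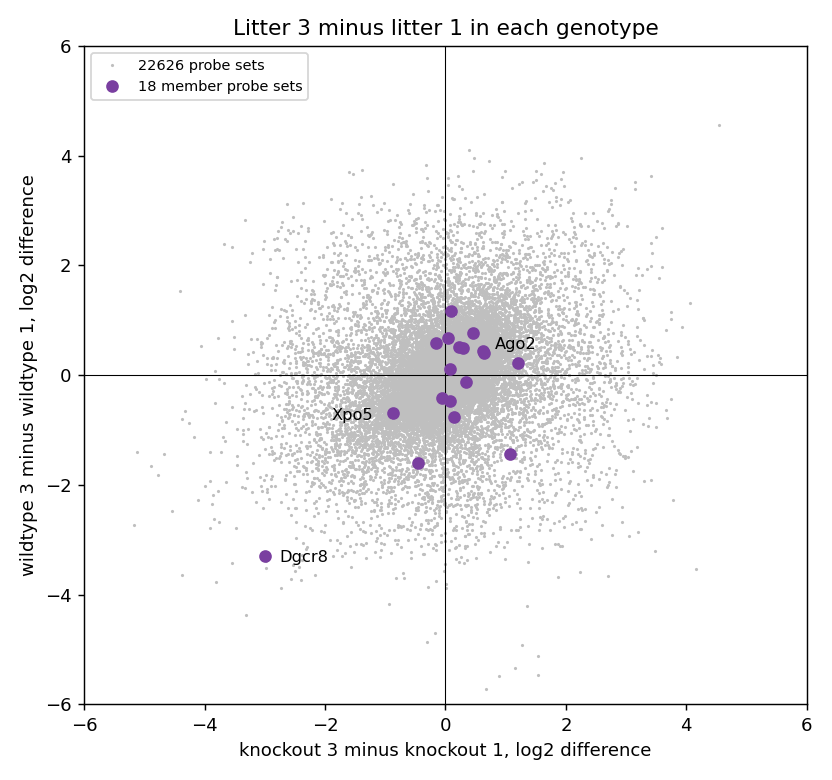
Log2 difference between litters 3 and 1 in knockout mice (horizontal axis) and wildtype mice (vertical axis), after quantile normalization of the 6 arrays, for all probe sets (grey) and the 18 member probe sets (purple). Another 3 probe sets lie outside the axes. Dgcr8 lies at the lower left, lower in litter 3 in both genotypes, with a fitted difference of -3.32, and Xpo5 lies on the same side with -0.85.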

How the data were processed

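Total RNA of P4 retinas from 3 Nhlh2 knockout and 3 wildtype mice was labelled and hybridised to Affymetrix GeneChip mouse arrays. For every array the authors deposited a table of signal intensities, 1 for each probe set, computed by Affymetrix MAS 5.0 after subtraction of background and of mismatch probes. The deposited intensities are linear and were not scaled between arrays. Arrays carry no read depth, so their number limits the precision.

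Of 22690 probe sets 64 were controls and were left out. A platform annotation paired 20380 of the rest with 1 gene symbol and 691 with several, and 1555 were unnamed here. All 8 measured members had the symbol and gene number of RefSeq. Signals were taken as log2(signal + 1), quantile normalized, and tested with limma 3.58.1 in R 4.3.3 (intensity trend, two-sided, Benjamini-Hochberg adjustment over all 22626 probe sets). Medians and percentiles came from the deposited signals. The script was tested on simulated data. Genes were named by their list, and per gene the probe set with the highest mean normalized signal stood for it. For each list, the genes with the highest and lowest log2 difference with all arrays were named. Members and lists were chosen with earlier results of these data known.

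The littermate pairs come from the series design. Correlations of deviations from the genotype means were 0.10, -0.07 and 0.08 for pairs 1, 2 and 3. The knockout means include the knockout 2 array, so these values cannot show whether littermate arrays pair. By rank correlation knockout 3 was closest to its littermate wildtype 3, at 0.959, against 0.947 and 0.950 for wildtype 1 and 2. Knockout 1 was closer to wildtype 2, at 0.975, than to its littermate wildtype 1, at 0.969. The pair was not in the fit, and the fit with it was an alternative, as were other scalings, constants, a filter on dim probe sets, no trend and leaving out each array.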

Additional observations from a re-analysis of the deposited data

How the results depend on the processing

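The count of probe sets called between genotypes was 0 in all 14 alternatives by limma, for all probe sets and for the members, while the number at an unadjusted p under 0.05 ran from 11 with the filter on dim probe sets to 1357 without knockout 1, against 347 with all arrays. With the littermate pair as a replicate block the count was 0, and limma gave 293 probe sets at an unadjusted p under 0.05. With the replicate block and pairs 1 and 3 only it was also 0, with 971. The median difference over the members, 0.19 with all arrays, was -1.16 with no normalization, where the median of all probe sets was -1.10, and 0.052 with a common trimmed mean. It ran from 0.078 without wildtype 1 to 0.35 without wildtype 3. Members above the median in all 3 wildtype arrays were 4 to 5 with an array left out, and 6 at the 25th percentile.

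No member had a difference past the threshold, and several signs turned. The cause was not tested. With no normalization, Dicer1 had -1.30, Tarbp2 -1.07, Ago2 -0.92 and Tnrc6a -0.57, where that setting shifts all probe sets. With 1 array left out, Dgcr8 ran from -1.70 to 0.15, Xpo5 from -0.27 to 0.22, Dicer1 from -0.0028 to 0.095, Tarbp2 from -0.18 to 0.66 and Tnrc6b from -0.87 to 0.012. Leaving out knockout 2 turned the sign of Dgcr8 (to 0.11), Dicer1, Tarbp2 and Tnrc6b, and leaving out wildtype 2 that of Dgcr8. Xpo5 turned to 0.22 without knockout 3, and to 0.068 without wildtype 1 and 0.066 without wildtype 2. With the replicate block and pairs 1 and 3 only, Dgcr8 had 0.86, Tarbp2 -0.37 and Tnrc6b 0.017. Xpo5 had 0.028 with centring at the 75th percentile, and Dicer1 had -0.090 with a common trimmed mean. Between litters 3 and 1, with no normalization, Dicer1 had -0.22 and Tnrc6a -0.10, where all probe sets had a median of -0.30, and with a constant of 16 Lin28a had 0.021. Probe sets called between these litters numbered 1547, and 3461 with no normalization, 2040 with centring at the 75th percentile, 2229 with a common trimmed mean and 735 with a constant of 16. Xpo5 was among them with no normalization and with the trimmed mean, but it had helped to prompt the contrast, so this is not a test of it. That contrast was chosen after seeing the data.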

Other observations

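In the comparison of litters 3 and 1, chosen after the values had been seen, 7 of the 32 measured pathway genes were called by limma. They were called at their brightest probe sets, 5 higher and 2 lower in litter 3, and 6.84% of all probe sets were called. All 7 were among the 26 of these genes above the array median in the 3 wildtype arrays. Among all probe sets with that property 11.9% were called. Some blood and vessel, microglia and progenitor markers differed between these litters too, with others flat or going the other way. Some lens genes were high in wildtype 1, an array of litter 1. The part of these markers in the litter values was not tested. Tnrc6c, the remaining GW182 protein, had 523.2 in knockout 3 and 727.1 in wildtype 3, against 349.7 in knockout 1 and 419.6 in wildtype 1 (log2 difference 0.96 ± 0.15, limma adjusted p = 0.0037). That was at 1460363_at. Its other probe set (1424645_at) did not share this, with 286.3 and 295.0 against 391.1 and 394.2 (-0.13 ± 0.16, limma adjusted p = 0.70). Cnot3, a subunit of the deadenylase complex, had 347.2 in knockout 3 and 322.2 in wildtype 3, against 163.3 in knockout 1 and 173.3 in wildtype 1 (1.31 ± 0.17, limma adjusted p = 0.0016). Hnrnpa1, Snd1 and Trim32 were the other 3 that were higher. Further probe sets of Hnrnpa1 had -0.02 (1455305_x_at) and 0.92 (1455740_at), and those of Snd1 had -0.24 and 0.66. Pabpc1, the poly(A)-binding protein, had 2268.6 in knockout 3 and 2122.7 in wildtype 3, against 3647.9 in knockout 1 and 3883.2 in wildtype 1 (-0.80 ± 0.15, limma adjusted p = 0.010), and the deadenylase Cnot8 was also lower (-0.65 ± 0.16, limma adjusted p = 0.034). A second Cnot8 probe set (1421135_a_at) had -0.70, and a dim one of Pabpc1 (1453840_at) had -0.07. Under 3 other scalings of the arrays, Hnrnpa1, Tnrc6c, Cnot3 and Cnot8 were called in 3, Snd1 and Trim32 in 2 and Pabpc1 in 1.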
